A study of Mus musculus with 9 samples.

Results

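The simple keratins and the proteins of the desmosome were followed in 5 tumours of mice and in normal skeletal muscle, of which 4 samples were taken. Genes were chosen by name, as every row of the deposited value table whose single gene symbol was Krt7, Krt8, Krt18, Krt19, Dsp, Jup, Pkp2, Pkp4, Dsg2 or Dsc2. Of these 10 genes, 8 were held with 21 probe sets, out of 14440 genes in the table, and Krt7 and Krt19 were not analysed here. Each tumour was 1 array, labelled CC23, CC17-B, CC17-A, SSM5 or SSM4, and the mice are given as MYF-5 CRE/SSM2, in a model of synovial sarcoma made with SYT-SSX. The muscle samples were titled wild type and came from hind limb, intercostal muscle, forelimb and a second hind limb sample. Genotype and tissue therefore cannot be told apart in any comparison. Synovial sarcoma carries the fusion protein SYT-SSX, and Cre driven from Myf5, a gene of muscle precursors, limits the model to cells with a history of Myf5 expression. Neither the age nor the strain of the animals is given in the sources used here. The labels also do not say whether CC17-A and CC17-B came from 1 mouse, or whether the arrays of a group came from separate animals, so p-values measure the spread between these samples, which may be technical.

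Simple keratins are the intermediate filament proteins of single-layered epithelia, in which a type II chain such as Krt8 pairs with a type I chain such as Krt18. Desmosomes anchor such filaments at the cell surface: the cadherins Dsg2 and Dsc2 span the membrane, the armadillo proteins plakoglobin (Jup) and plakophilin bind their tails, and desmoplakin (Dsp) links that plaque to the filaments. Human synovial sarcoma can form keratin-positive epithelial structures, while skeletal muscle fibres use desmin filaments and have no desmosomes. The comparison asked how far these tumours carry transcripts of such structures above the normal tissue.

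The values are MAS5 signals, a linear intensity for each probe set, scaled here to a common trimmed mean. A level under the floor of its array, the 40th percentile of that array, was treated as not above background, and the floors ran from 96.5 to 137. Log2 fold changes are differences of mean log2(scaled intensity + 16), tumour minus muscle, which understates the change of dim genes. The test was limma with Benjamini-Hochberg adjustment over 10650 genes, with calls at an adjusted p under 0.05. In bulk tissue, fewer cells of a type and less RNA per cell cannot be told apart. The ratio of the 3′ to the 5′ control probe set of Actb, a sign of RNA integrity, ran from 1.99 to 12.7 in the tumours and from 1.62 to 1.93 in muscle.

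Both keratins, desmoplakin and plakophilin 2 were higher in the tumours, and no gene of the group was called lower. Of the 7 genes tested, 4 were called higher, 0 lower and 3 were not called, while of all genes tested 30.1% were called higher and 17.9% lower, 48% in either direction. Limma gave 0 genes of the group lower at an unadjusted p under 0.05 as well. The same 4 genes had every tumour above every muscle array, a pattern shown by 25.2% of all genes tested. The median log2 fold change was 1.35 over the 7 genes and 0.23 over all genes tested. Dsp passed the filter through the tumours alone, so its higher level in tumour was largely set by that filter. Dsc2 was not tested, because its probe sets lay below the floor on all 9 arrays.

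**Figure D1:**
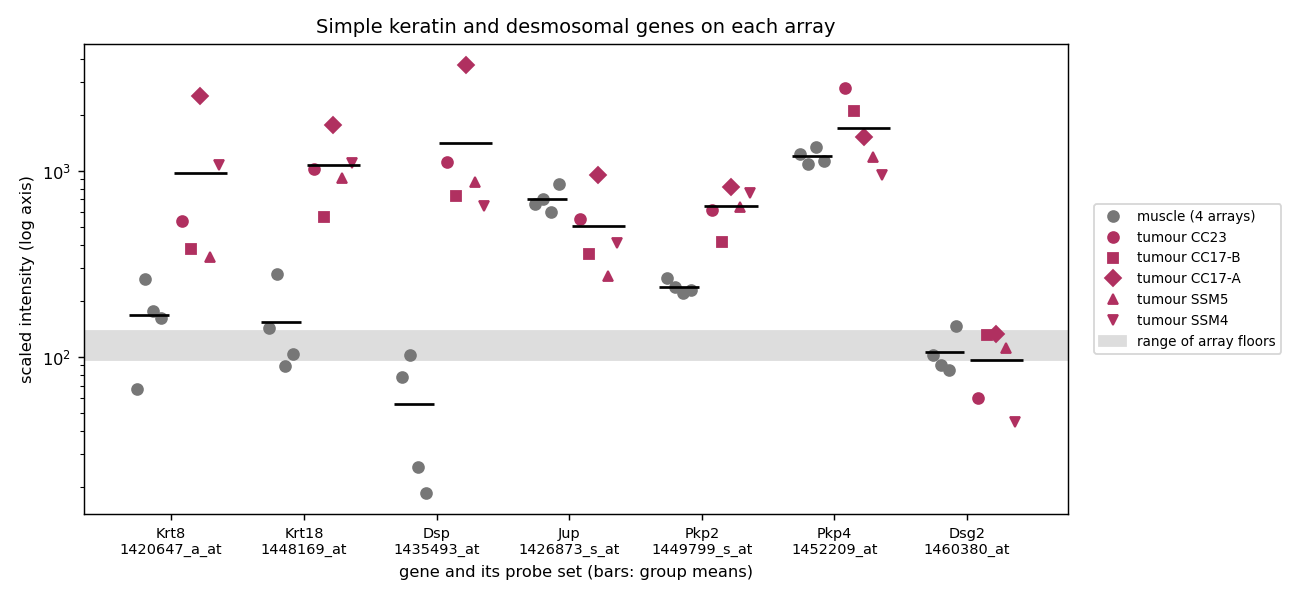
Scaled intensity (log axis) of the probe set that represents each tested gene, with muscle arrays in grey, tumours in red by symbol, group means as bars and the range of array floors shaded. Krt8, Krt18, Dsp and Pkp2 have all 5 tumours above all 4 muscle arrays, while Jup, Pkp4 and Dsg2 overlap.

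Krt8, the type II simple keratin, was represented by probe set 1420647_a_at. Its scaled intensity was 540 in CC23, 380 in CC17-B, 2514 in CC17-A, 343 in SSM5 and 1074 in SSM4. In muscle it was 67.0 in hind limb, 263 in intercostal muscle, 176 in forelimb and 161 in the second hind limb sample. CC17-A stood highest and SSM4 next, and the groups did not overlap, although the lowest tumour was only a little above intercostal muscle. The tumour mean was 970 ± 911 (SD, n = 5) against 167 ± 80.5 (SD, n = 4) in muscle. The log2 fold change was 2.14 (SE 0.56, adjusted p = 0.00894 by limma). CC17-A carried the tumour mean, which was 584 ± 337 (SD, n = 4) without it, and the log2 fold change was then 1.69 (adjusted p = 0.0115). Under the alternative settings tried, that p lay between 0.0015 and 0.0320.

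Both further Krt8 probe sets lay below the floor on every muscle array and above it in every tumour. Probe set 1423691_x_at read 244 to 1718 in the tumours and 7.94 to 98.9 in muscle, at least 4.34-fold higher. Probe set 1435989_x_at read 131 to 1747 against 8.84 to 73.1, at least 3.80-fold higher. An "at least" fold sets the mean log2 level of the tumours against the floors of the muscle arrays. With the 3 probe sets averaged, the log2 fold change of Krt8 was 3.17 (adjusted p = 0.0015 by limma). Within arrays, the measured change of 1420647_a_at was smaller than theirs, with differences of −1.58 and −1.53 (exact permutation, adjusted p = 0.0179 and 0.0238 over 9 pairs). With values under the floor set to it, the differences were −0.11 and 0.08 (adjusted p = 0.723 and 0.778). The suffix _x marks probe sets that can also bind other transcripts, so these levels are less specific than their brightness alone shows.

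Krt18, the type I partner of Krt8, was measured by 1 probe set, 1448169_at. It read 1014 in CC23, 565 in CC17-B, 1768 in CC17-A, 917 in SSM5 and 1098 in SSM4. The muscle values were 143 in hind limb, 280 in intercostal muscle, 89.4 in forelimb and 103 in the second hind limb sample. No tumour came near the highest muscle array, and CC17-A was again the highest tumour. The mean was 1072 ± 439 (SD, n = 5) against 154 ± 87.0 (SD, n = 4), and the log2 difference was 2.71 by limma (SE 0.37, adjusted p = 0.00015). The highest tumour exceeded the lowest 3.13-fold for Krt18 and 7.32-fold for Krt8. Within arrays, the change of Krt18 exceeded that of Krt8 by 0.58 on the log2 scale (exact permutation p = 0.302, two-sided), a difference inside the spread between arrays, and the p does not show that the pair changed alike.

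Krt8 and Krt18 are neighbours on mouse chromosome 15, with 0 protein-coding genes between them in RefSeq. Their promoter windows, 250 bases before to 50 after the RefSeq start (build GRCm38.p6), are shown because both genes rose together in these tumours. Capitals mark matches on either strand to 5 motifs: AP-2 (GCCNNNGGC), Sp1 (GGGCGG), the TATA box (TATAAA), the E-box read by SNAIL and ZEB factors (CAGGTG) and the grainyhead core (AACCGG).
Krt8 promoter, chr15:102004293-102004592 (- strand): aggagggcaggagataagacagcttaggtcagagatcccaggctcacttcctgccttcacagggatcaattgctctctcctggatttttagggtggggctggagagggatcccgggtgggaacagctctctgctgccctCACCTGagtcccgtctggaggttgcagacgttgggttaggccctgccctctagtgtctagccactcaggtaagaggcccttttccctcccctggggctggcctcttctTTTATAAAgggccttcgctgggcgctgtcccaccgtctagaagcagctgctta
Krt18 promoter, chr15:102027966-102028265 (+ strand): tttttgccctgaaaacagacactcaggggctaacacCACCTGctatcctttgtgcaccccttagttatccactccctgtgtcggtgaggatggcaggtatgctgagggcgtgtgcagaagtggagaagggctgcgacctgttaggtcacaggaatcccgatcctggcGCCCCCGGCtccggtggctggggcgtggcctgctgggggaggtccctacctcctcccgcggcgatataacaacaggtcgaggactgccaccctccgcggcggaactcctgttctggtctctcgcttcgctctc
The Krt8 window held 2 overlapping TATA matches and 1 E-box, and the Krt18 window held 1 AP-2 match and 1 E-box. Among the 32851 windows of this length that were used, 16.6% held the AP-2 motif, 35.7% Sp1, 13.6% TATA, 20.2% the E-box and 6.83% grainyhead. A match is a description of letters, not a site of binding.

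Dsp, which ties the desmosomal plaque to keratin, had the largest log2 fold change of the 7 genes tested. Probe set 1435493_at read 1111 in CC23, 735 in CC17-B, 3675 in CC17-A, 864 in SSM5 and 644 in SSM4. In muscle it read 77.8, 102, 25.7 and 18.6 in hind limb, intercostal, forelimb and second hind limb samples, below the floor in each. Dsp was thus above the floor in every tumour and on no muscle array. The mean was 1406 ± 1280 (SD, n = 5) against 55.9 ± 40.4 (SD, n = 4), and 839 ± 203 (SD, n = 4) without CC17-A. Against the muscle floors Dsp was at least 9.5-fold higher, and its fitted log2 fold change was 4.16 (SE 0.53, adjusted p = 0.00011 by limma), or 3.74 (adjusted p = 0.00014) without CC17-A. Under the other settings that gave a value, its p lay between 3.4e-05 and 0.00097, and its log2 fold change was 3.36 with a pseudocount of 64 and 4.61 with 1. The second probe set, 1435494_s_at, was also below the floor throughout muscle, with a mean of 737 ± 592 (SD, n = 5) against 56.9 ± 21.8 (SD, n = 4), at least 5.22-fold higher.

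Pkp2, a plakophilin that gathers desmoplakin at the plaque and is also found in cells without keratin, rose less. Probe set 1449799_s_at read 613 in CC23, 412 in CC17-B, 815 in CC17-A, 637 in SSM5 and 760 in SSM4. The muscle arrays were tightly grouped, at 265 in hind limb, 237 in intercostal muscle, 220 in forelimb and 228 in the second hind limb sample. The mean was 647 ± 156 (SD, n = 5) against 238 ± 19.7 (SD, n = 4), which limma put at 1.35 (SE 0.23, adjusted p = 0.00058) on the log2 scale. The other Pkp2 probe sets did not all follow. Probe set 1429183_at read 389, 370 and 402 in CC17-A, SSM5 and SSM4, but 130 in CC23 and 77.9 in CC17-B, against 151 to 197 in muscle. Its difference of 0.41 on the log2 scale was not called (adjusted p = 0.500 over all probe sets). Its change was smaller than that of 1449799_s_at by 0.95 on the log2 scale (exact permutation p = 0.0238, adjusted p = 0.0306 over 9 such pairs). Probe set 1420259_at lay below the floor on every array, and 1460511_at reached it on 3 arrays. With the mean of all 4 probe sets the log2 fold change of Pkp2 was 0.39 (adjusted p = 0.347), and with only probe sets whose ID is digits and _at it was 0.41 (adjusted p = 0.485), which ends its call. Across all settings p lay between 0.00013 and 0.485.

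**Figure D2:**
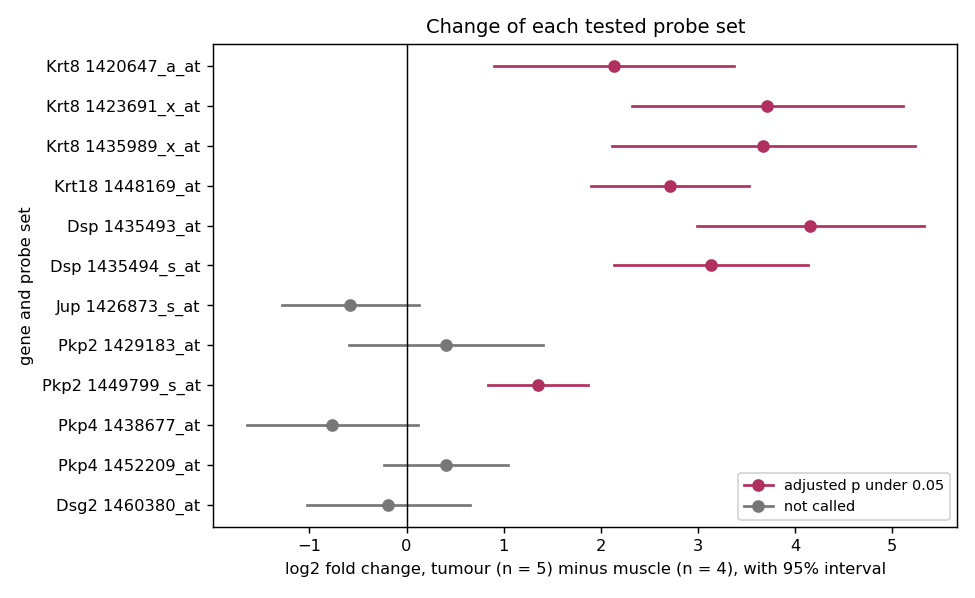
Log2 fold change of the 12 probe sets tested, tumour minus muscle, with 95% intervals from the fit over all probe sets and called probe sets in red. All 3 Krt8 probe sets, Krt18 and both Dsp probe sets lie above 0, while of Pkp2 only 1 of 2 probe sets was called and the Pkp4 pair lies on both sides of 0.

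Counted by probe set, 7 of the 12 that passed the filter were called higher and 0 lower, where 25.7% of all 17433 probe sets tested were called higher and 16.5% lower, 42.2% in either direction. Both _x probe sets of Krt8 and both Dsp probe sets passed the filter through the tumours alone. For these a higher level in tumour was largely set by the filter, so the count is not independent of it. The other 9 probe sets belonged to Pkp2, Dsg2 and Dsc2 and did not pass the filter.

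Jup encodes plakoglobin, which serves desmosomes and also replaces beta-catenin in adherens junctions. Probe set 1426873_s_at read 553 in CC23, 356 in CC17-B, 947 in CC17-A, 271 in SSM5 and 407 in SSM4. The muscle values were 659 in hind limb, 703 in intercostal muscle, 597 in forelimb and 847 in the second hind limb sample. Thus 4 tumours lay below all muscle arrays and CC17-A above all of them. Before scaling, CC17-A was below the second hind limb sample. The mean was 507 ± 266 (SD, n = 5) against 701 ± 106 (SD, n = 4). Limma put the difference at −0.58 on the log2 scale (95% interval −1.28 to 0.12, SE 0.32, adjusted p = 0.158), which was not called. Without CC17-A it was −0.83 (adjusted p = 0.0191) and called lower. It was also called with arrays centred on their median, at −0.77 (adjusted p = 0.0421), and with array weights, at −0.74 (adjusted p = 0.0363). Across all settings p lay between 0.0191 and 0.371. Plakoglobin is also made by endothelium: of 5 endothelial markers tested 1 was called lower (Tek, −1.42), 3 were lower at an unadjusted p under 0.05, and 1 to 4 were called lower over 5 scalings of the arrays. Among all genes tested 17.9% were called lower. The summed intensity of the 5 markers ran from 1217 to 2325 in the tumours and from 2556 to 2790 in muscle. None of the 5 lay below the floor throughout a group, and their part in the Jup values was not tested. In CC17-A, where Jup was highest, that sum was 1326.

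The 2 plaque partners changed unequally. Within arrays, the change of Dsp exceeded that of Jup by at least 3.82 on the log2 scale, with values under the floor set to it (exact permutation p = 0.0079, the smallest this design can give, adjusted p = 0.0357 over 9 pairs). Dsp also exceeded Pkp2, by at least 1.89 (exact permutation p = 0.0159, adjusted p = 0.0357). From the values as measured these differences were 4.73 and 2.80 (exact permutation p = 0.0079 for each, adjusted p = 0.0179). Ctnnb1, which encodes beta-catenin, the relative of plakoglobin in adherens junctions, exceeded Jup by 1.58 (exact permutation p = 0.0159, adjusted p = 0.0238), and all 9 pairs were chosen after their values were seen. The Dsp and Jup promoter windows are printed to set a gene that was high in all tumours beside one that was not, with the same motifs in capitals.
Dsp promoter, chr13:38151044-38151343 (+ strand): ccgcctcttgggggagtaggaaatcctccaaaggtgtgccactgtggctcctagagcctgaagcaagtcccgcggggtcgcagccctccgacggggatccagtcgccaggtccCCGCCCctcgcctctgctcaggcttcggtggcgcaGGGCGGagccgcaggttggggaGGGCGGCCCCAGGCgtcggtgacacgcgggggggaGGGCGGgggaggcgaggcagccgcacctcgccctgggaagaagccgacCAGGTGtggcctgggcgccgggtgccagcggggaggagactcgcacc
Jup promoter, chr11:100397741-100398040 (- strand): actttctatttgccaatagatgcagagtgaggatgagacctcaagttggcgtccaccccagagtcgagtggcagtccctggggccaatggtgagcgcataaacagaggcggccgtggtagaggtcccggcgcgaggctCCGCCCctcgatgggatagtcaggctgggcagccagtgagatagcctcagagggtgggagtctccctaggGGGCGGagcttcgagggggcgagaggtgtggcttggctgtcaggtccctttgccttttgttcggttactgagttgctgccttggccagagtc
The Dsp window held 4 Sp1 matches, 1 AP-2 match that overlaps one of them, and 1 E-box, and its GC content was 73.0%. The Jup window held 2 Sp1 matches and had a GC content of 60.7%. No grainyhead match stood in the Krt8, Krt18, Dsp or Jup window, which says only that these letters are not there.

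Pkp4, a relative of the plakophilins that is found at several kinds of junction, differed more among the tumours than between the groups. Probe set 1452209_at read 2767 in CC23, 2101 in CC17-B, 1524 in CC17-A, 1183 in SSM5 and 947 in SSM4. The muscle values were 1223, 1091, 1338 and 1128 in hind limb, intercostal, forelimb and second hind limb samples. All 3 tumours labelled CC were above every muscle array, SSM5 was among the muscle values and SSM4 below them. Before scaling, CC17-A too was among the muscle values. The log2 fold change was 0.41 (95% interval −0.23 to 1.04, SE 0.29, adjusted p = 0.273 by limma), and Pkp4 was not called.

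Another Pkp4 probe set, 1438677_at, read 442 in CC23, 311 in CC17-B, 237 in CC17-A, 94.0 in SSM5 and 114 in SSM4, against 326 to 382 in muscle. Here too the CC tumours stood above the SSM tumours, but after scaling 4 tumours were below all muscle arrays. Its log2 fold change was −0.76 (adjusted p = 0.148 over all probe sets), opposite in sign to that of 1452209_at. Within arrays the 2 probe sets differed by 1.17 on the log2 scale (exact permutation p = 0.0079, adjusted p = 0.0179), so no single direction holds for Pkp4.

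The desmosomal cadherins were at or near background. Of 6 Dsg2 probe sets, the brightest, 1460380_at, read 44.8 in SSM4 at the lowest, 112 in SSM5 at the median and 133 in CC17-A at the highest, against 85.0 to 146 in muscle. It reached the floor on only 4 arrays, 3 tumours and 1 muscle, and the log2 difference was −0.19 (adjusted p = 0.713 by limma, 95% interval −1.02 to 0.65). Probe set 1449741_at read 10.6 to 44.6 in the tumours and 56.9 to 145 in muscle, reaching the floor on 2 muscle arrays alone. Its difference of −1.38 on the log2 scale had an exact permutation p = 0.0079 (adjusted p = 0.0714 over the 9 probe sets outside the fit). Both Dsc2 probe sets, 1421156_a_at and 1426911_at, lay below the floor on all 9 arrays, at 15.2 to 39.3 and 1.60 to 77.0 in the tumours, so neither a level nor a change of Dsc2 was measurable here, and its absence is not shown. For Dsg2 probe set 1449741_at, every tumour was thus below every muscle array, at the smallest p of the design. With 9 tests no single probe set could pass 0.05 after adjustment.

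**Figure D3:**
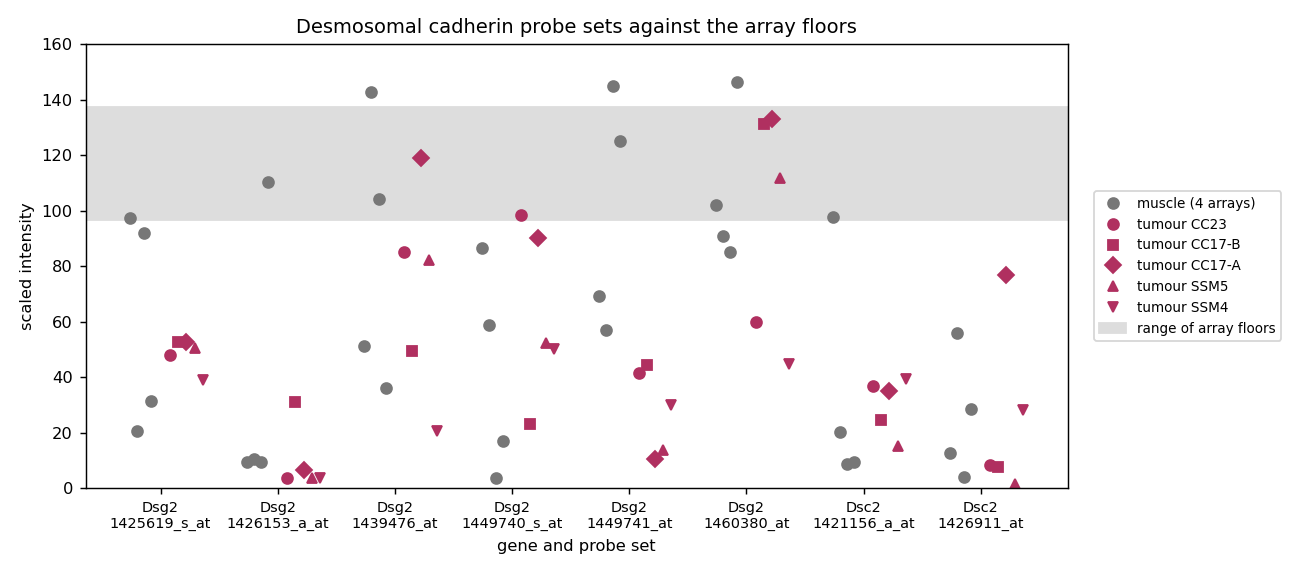
Scaled intensity of the 6 Dsg2 and 2 Dsc2 probe sets on each array, with the range of array floors shaded from 96.5 to 137. No tumour point lies above the shaded band, but for Dsg2 by 1460380_at 3 tumours and 1 muscle array reached their own floors. Both Dsc2 probe sets stay under the floor of their arrays.

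CC17-A had the highest level of most of these genes. It ranked first among the tumours for 6 of the 7 genes tested and for all 4 called genes. It was highest for 24.8% of all genes tested and 26% of all genes called higher. These ranks are of scaled intensities, with a factor of 1.24 for CC17-A, 0.951 for CC17-B and 0.925 for SSM4. Before scaling, CC17-A was not the highest tumour for Pkp2 or Dsg2. For Dsg2 the scaled values of CC17-A and CC17-B were close, at 133 and 131. The mean log2 difference from muscle over Krt8, Krt18, Dsp and Pkp2 was 3.75 in CC17-A, 2.64 in SSM4, 2.48 in CC23, 2.21 in SSM5 and 1.87 in CC17-B. The tumour with the shared number, CC17-B, was thus the lowest. CC17-A exceeded CC17-B 6.62-fold for Krt8, 5.0-fold for Dsp, 3.13-fold for Krt18, 2.66-fold for Jup and 1.98-fold for Pkp2. With 1 array per tumour these differences have no test. The SD of log2 levels among tumours was 1.18 for Krt8 and 1.0 for Dsp, larger than for 94.1% and 90.2% of all genes tested, and 0.37 for Pkp2, larger than for 35.8%.

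**Figure D4:**
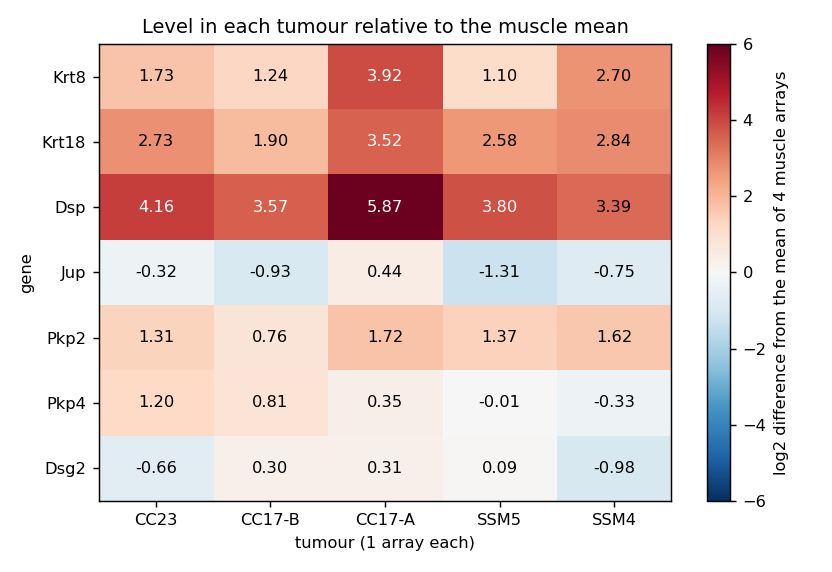
Log2 level of each tested gene in each tumour minus the mean of the 4 muscle arrays, as numbers and colour. In these scaled values the CC17-A column is the highest for every gene except Pkp4, and the Jup row is below 0 in 4 tumours.

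Of 5 markers of stratified skin held, 4 were under the floor in CC17-A and 1 was above its muscle levels: Krt1, Trp63, Sfn and Ivl read 98.2, 91.4, 22.9 and 48.9 in CC17-A, under its floor of 132, while the cornified envelope gene Lor read 910 there and 451 to 749 in muscle. Before scaling, Lor in CC17-A was below the second hind limb sample. In other tumours Sfn was above the floor in SSM5 and SSM4, at 351 and 239, against 17.0 to 57.1 in muscle. Trp63 was above it in CC23, at 215, against 139 to 223 in muscle. Krt1 and Ivl were under the floor in every tumour. The summed intensity of the 5 markers ran from 344 to 1172 in the tumours, highest in CC17-A, and from 679 to 1071 in muscle. Of the 2 tested, 0 were called in either direction, also at an unadjusted p under 0.05 by limma. Cardiac muscle, whose intercalated discs carry desmosomes, was followed by 4 markers: Myh6, Nppa and Myl7 were below the floor in all tumours, and Tnnt2 was not called (−1.39, adjusted p = 0.0655). Their sum ran from 87.9 to 222 in the tumours and from 237 to 476 in muscle. The 8 markers of skeletal muscle had a summed intensity from 359525 to 497771 in muscle and from 315 to 94112 in the tumours, highest in SSM4, and 7 of the 8 were called lower in tumour. Among tested markers of further cell types, 2 of 3 for smooth muscle and 1 of 3 for Schwann cells were called lower, 1 of 3 for macrophages higher and 0 of 3 for adipocytes in either direction, where 2 had an unadjusted p under 0.05. Among all genes tested 30.1% were called higher and 17.9% lower. The part of these cell types in the values of the keratin and desmosomal genes was not tested.

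Among the muscle arrays, intercostal muscle held the highest Krt8 and Krt18 levels. It was the highest muscle array for 5 of the 6 probe sets of Krt8, Krt18 and Dsp, of which both _x probe sets of Krt8 and 1435493_at of Dsp were under its floor of 113 all the same. Over the representative probe sets of all 8 genes it was the highest for 3. It also held the highest value of all 4 mesothelial markers: Upk3b read 1523 there and 14.0 to 117 on the other muscle arrays, Upk1b 479 against 76.9 to 83.8, Msln 456 against 9.87 to 99.1 and Wt1 307 against 35.6 to 56.5. Mesothelium, the lining of body cavities, is a simple epithelium that makes Krt8 and Krt18. The adipocyte markers held, Adipoq, Cidec, Fabp4 and Lep, were also highest in intercostal muscle. Adipoq read 40934 there and 2651 to 4557 on the other muscle arrays, and Cidec 7096 against 335 to 685. The part of mesothelium and of adipocytes in the intercostal values was not tested. Without that array the log2 fold changes were 2.38 for Krt8, 3.02 for Krt18 and 4.46 for Dsp, each called (adjusted p = 0.010, 1e-04 and 0.00019 by limma). In CC17-A, where the keratins were highest, Upk3b, Upk1b, Msln and Wt1 read 8.59, 13.9, 15.5 and 38.4, all under its floor. The summed intensity of the 4 ran from 76.4 to 345 in the tumours and from 220 to 2765 in muscle.

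**Figure D5:**
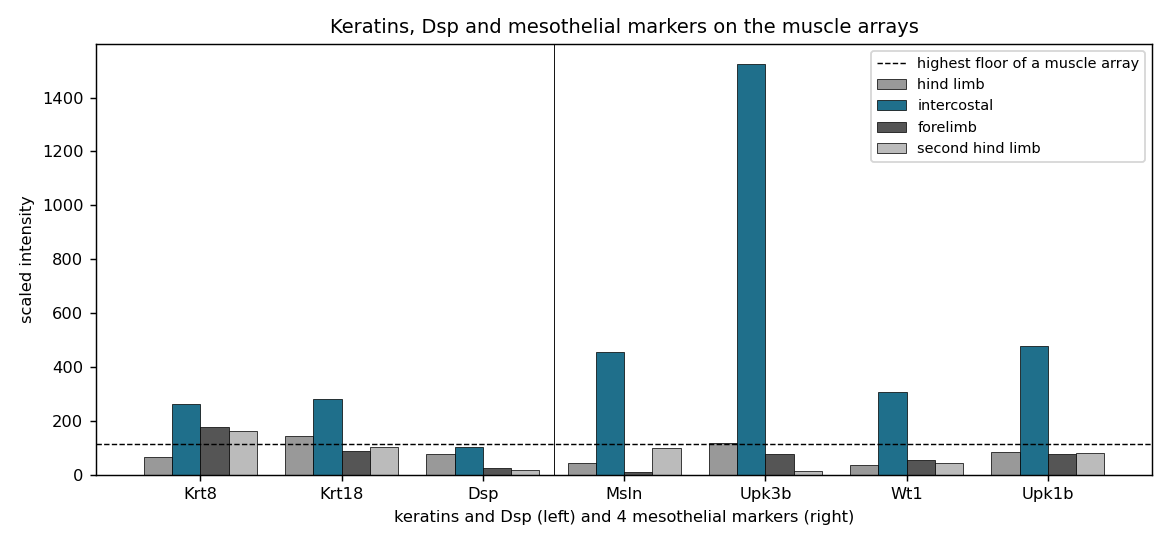
Scaled intensity of Krt8, Krt18 and Dsp (left) and of 4 mesothelial markers (right) on the 4 muscle arrays, with the highest floor of a muscle array dashed. The intercostal array is the highest for all 7 genes, and Upk3b reads 1523 there.

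No other keratin tested was called higher. Of 39 further keratins named, 21 were held and 5 tested, of which 0 were higher and 2 lower, with 0 higher at an unadjusted p under 0.05 by limma. Krt4, a keratin of stratified mucosa, read 75.2 ± 40.1 (SD, n = 5) in the tumours and 715 ± 285 (SD, n = 4) in muscle. The log2 difference was −3.01 (adjusted p = 8.5e-05 by limma). Its probe set carries the suffix _x and can also bind other transcripts, so these values are less specific to Krt4. Whether the muscle signal came from Krt4 was not tested. Krt79 was the other keratin called lower, at −0.93. Another 16 were not tested, 7 of them below the floor on all arrays, among them Krt16 and Krt17 of activated skin at 21.0 and 15.3 on average in the tumours. The median of the 5 tested was −0.93, against 0.23 over all genes tested, of which 30.1% were called higher and 17.9% lower.

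Of 9 other genes of the desmosome and cornified envelope, 5 were tested. While 30.1% of all genes tested were called higher, 1 of these 5 was. This was Evpl, encoding envoplakin, a relative of desmoplakin, which was under the floor throughout muscle and at 294 ± 105 (SD, n = 5) in the tumours, at least 2.5-fold higher (adjusted p = 0.00126 by limma). Evpl passed the filter through the tumours alone, so its higher level in tumour was largely set by that filter. Ppl, its partner periplakin, was not called (0.31 on the log2 scale) and read 1036 in CC17-A and 352 to 580 in the other tumours. Pkp3, the plakophilin of most epithelia, was at 0.76 (adjusted p = 0.148). Dsg1a, Dsg1b and Dsc1, the cadherins of stratified skin, were below the floor on all arrays. Pkp1, of the same tissue, was not tested and read 510 in CC23 and 17.3 to 162 in the other tumours.

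The adherens junction, which shares catenins with the desmosome, had 6 of 10 tested genes higher and 0 lower, with a median of 1.01. Over all genes tested the shares were 30.1% higher and 17.9% lower. Cdh1, the epithelial cadherin, rose by 2.32 on the log2 scale, and read 921 in CC17-A and 227 to 487 in the other tumours. Nectin2, an adhesion molecule of these junctions, rose by 1.59, Cdh3, a cadherin of epithelia, by 1.40 and Ctnna1, which couples cadherins to actin, by 1.29. The groups overlapped for Cdh3 (adjusted p = 0.0427 by limma). It read 62.6 in CC23, under the floor, and 172 in the second hind limb sample. Ctnnb1 rose by 1.0, with every tumour above every muscle array. Among scalings of the arrays the count of higher genes ran from 4 to 6 and that of lower genes from 0 to 1. By limma 1 gene, Afdn, was lower at an unadjusted p under 0.05.

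Linkers of intermediate filaments and hemidesmosome genes went both ways, with 2 of 7 tested higher and 3 lower and a median of −0.40. Of all genes tested 30.1% were called higher and 17.9% lower, so the share called higher was near that of all genes. Itga6, a laminin receptor, rose by 1.35 and Macf1, a cytoskeletal linker, by 1.20. Plec, the linker plectin, which is abundant in muscle, fell by 1.47 and Dst, a related linker, by 1.27. Of 5 genes of mesenchymal and muscle filaments, 0 were higher and 2 lower, with 0 higher at an unadjusted p under 0.05. Synm, a partner of desmin, fell by 3.68 on the log2 scale. Sync, another, was under the floor in every tumour and at least 1.61-fold lower. Sync passed the filter through muscle alone, so its lower level in tumour was largely set by that filter. Vim, the filament protein of mesenchymal cells, was at 18481 ± 8225 (SD, n = 5) against 16738 ± 1652 (SD, n = 4), a log2 difference of 0.04 (adjusted p = 0.932). Des, which encodes desmin, read only 113 to 297 in muscle, not far above the floors. It was not called (−0.89, adjusted p = 0.0881 by limma). The median of this list, −0.89, was the value of Des.

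Of 8 tested transcription factors of epithelia, 4 were higher and 0 lower, with a median of 0.97. The shares over all genes tested were 30.1% higher and 17.9% lower. Tfap2c and Foxa1 passed the filter through the tumours alone. Their higher level in tumour was largely set by that filter, so the count is not independent of it. Tfap2c, an AP-2 factor, read 2345 to 7755 in the tumours and was below the floor throughout muscle, at least 31.8-fold higher. Foxa1, a factor of glandular epithelia, was at least 6.17-fold higher, Tfap2b rose by 2.83 on the log2 scale and Ovol2, a repressor of mesenchymal genes, by 1.16. Tfap2c was highest in CC23 at 7755 and read 3401 in CC17-A, so its order among tumours was not that of Krt8 or Dsp. Trp63, the factor of stratified epithelia, was not called (−0.81, adjusted p = 0.101).

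The genes whose profiles over the 9 arrays were closest to Krt18 were Patj, Tmem59l, Slc25a13, Hmgb3 and Fnbp1l. Their root mean square log2 difference from it ran from 0.29 to 0.40, against a median of 1.42 over all genes tested. Closest to Pkp4 were Cherp, Fbxo22, Phb2, Gdi2 and Rpsa, at 0.14 to 0.16 against a median of 0.76. For Dsp, chosen after its values were seen, the nearest was Efna3, at 0.57 against a median of 2.16, and for Krt8 it was Stmn2, at 0.44 against 1.38. These distances describe the 9 arrays, which share the contrast of tumour with muscle.

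The RNA integrity ratio given above was higher in every tumour than in every muscle array, highest in CC23 at 12.7 and next in SSM5 at 4.54. With that ratio as a covariate the same 4 genes were called higher, with log2 fold changes of 2.76 for Krt8, 2.87 for Krt18, 4.35 for Dsp and 1.44 for Pkp2. That of Pkp4 was then −0.00062 (adjusted p = 0.999). With CC23 and SSM5 left out, Krt8, Krt18 and Pkp2 were called, while Dsp was on too few arrays above the floor to be tested.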

How the data were processed

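Total RNA was hybridised to Affymetrix arrays, 1 per sample. The deposited values are linear intensities that the authors made with MAS5, per the submitters' processing notes; version, scaling target and background step are not given in the sources used here, nor are detection calls. Arrays whose 2% trimmed means differed by over 10% were scaled to a common one (factors 0.909 to 1.29). Of 30508 probe sets, 7 controls, 496 with several symbols and 4424 with none were left out, and all 21 of the members' matched a RefSeq gene ID. The probe set of highest mean log2 level stood for its gene, which was tested if at or above the 40th percentile of its array on at least 4 arrays.

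The comparison of tumours with muscle used limma (version 3.58.1, R 4.3.3) with an intensity trend in eBayes, two-sided, across all genes. Probe sets outside the fit, and differences within arrays, had an exact two-sided permutation test. The procedure was tested on simulated data. The members, lists and motifs were chosen with earlier results of these data known. Named genes are all members, up to 4 called genes of each list with the largest change, the 5 nearest profiles to the keratin and to the desmosome gene of highest level, and exceptions. Alternatives covered scaling, pseudocount, filter, probe set choice, fit and samples. The number of arrays limits the precision. Promoter windows came from RefSeq (GRCm38.p6), with those of a single chromosome left out. Of the 8 genes, 5 had a window in the set used, and the other genes are not shown to lack one.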

Additional observations from a re-analysis of the deposited data

Results flagged for a closer look

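Among 42 groups of tumour or muscle values, 1 for each of the 21 probe sets and 2 tissues, 5 held an array far from the others, with a gap to its neighbour that was a large share of the group's range on the log2 scale. Chance gives such a gap in about 5% of groups. In muscle the intercostal array was the highest for Krt8 by 1423691_x_at, at 98.9 against 13.4 next (a gap of 0.869 of the range), and by 1435989_x_at, at 73.1 against 11.8 (0.911). CC17-B was the lowest tumour for Pkp2 by 1460511_at, at 4.93 against 87.1 (0.787). For Dsg2 by 1426153_a_at, CC17-B was the highest tumour, at 31.1 against 6.53 (0.846), and the second hind limb sample the highest muscle, at 110 against 10.7 (0.971). Of these arrays only the last reached its floor for that probe set.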

How the results depend on the processing

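The count of 4 genes called higher became 2, Krt18 and Dsp, with only probe sets ending in digits and _at, where Krt8 and Jup have none, and was 3 with all probe sets of a gene averaged. It stayed at 4 with each array left out in turn. The count of genes called lower rose from 0 to 1, Jup, with arrays centred on their median, with array weights and without CC17-A, so that it ran from 0 to 1 with single arrays left out. The sign of Pkp4 reversed to −0.18 with its probe sets averaged and to −0.00062 with the Actb ratio as a covariate. That of Dsc2, at 0.17 as reported, reversed to −0.14 by its other probe set and ran from −0.061 to 0.67 with single arrays left out, −0.05 without the second hind limb sample, and that of Dsg2 from −0.27 to 0.01 (0.011 without SSM4). The cause of these changes was not tested. Krt8, Krt18 and Dsp kept their direction and call under all alternatives that gave a value (23, 24 and 23), Pkp2 under 22 of 24. Genes called over all genes tested ran from 4224 to 6045. Of the calls, 62.6% were higher as reported, 52.1% after centring on array medians and 70.5% after centring on genes of the ribosome and proteasome. The median over all genes was 0.23, 0.04 and 0.39 (log2). The Actb covariate, the run without CC23 and SSM5 and the setting of dim values to the floor were chosen after seeing the data. Of the 9 differences within arrays, the last of these ended the call of both that set Krt8 probe sets against each other and of no other. Signal near the floor limits Dsg2, Dsc2 and the muscle levels of Dsp. No paired analysis was possible because the labels give tumours and muscles no shared replicate numbers.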
